A study of Mus musculus with 4 samples.

Results

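The 44 genes described here act in the mammalian cell cycle, some as brakes, and were taken by name, under a rule that uses no measured value. They fall into 13 genes of the G1 to S transition, 12 genes of DNA replication and 19 genes of mitosis, of 43432 genes in the count table. The members and lists were chosen with earlier results of these data known. All 44 were found in the table under 1 Ensembl identifier each, and all 44 passed the filter on low counts, so each was tested. The RNA came from 4 subcutaneous tumours of the mouse neuroblastoma line 9464D-GD2, which displays the ganglioside GD2, grown in female C57BL/6 mice of an age not stated in the labels. In the sEV group (tumours numbered 3 and 4), mice received 25 µg dinutuximab, an antibody against GD2, plus 20 µg small extracellular vesicles (sEVs) released by 9464D-GD2 cells. In the dinutuximab group (tumours also numbered 3 and 4), mice received 25 µg dinutuximab alone. Both groups were dosed 2 times per week for 5 treatments, so every tumour had been under the antibody and untreated tumours were not analysed here. All tumours came from 1 cell line, whose parent 9464D was derived from a mouse carrying a human MYCN transgene.

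Cells enter the cycle when D-type cyclins bind CDK4 or CDK6 and phosphorylate the retinoblastoma protein, which then releases E2F transcription factors. E2F activity raises cyclin E and the replication genes, among them the MCM helicase subunits and the enzymes that make deoxynucleotides. Mitotic genes follow later in the cycle, largely through FOXM1 and MYB proteins bound to the MuvB complex, and neuroblastomas with high MYCN are known for fast proliferation. Replication and mitotic genes peak at different times in the cycle. The mean level of either list can reflect the share of cells in that phase, the RNA per cell and the mix of cell types. These cannot be told apart in bulk tissue. The G1 to S list mixes activators with brakes, so its mean level does not read the share of cells in that phase.

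The libraries held between 24452699 and 28187573 counts, so that 42 of the 44 genes had at least 312 counts in every tumour. Cdk6 had between 18 and 35 counts and Ccnd2 between 41 and 69. Levels are CPM (counts scaled to library size) corrected by TMM factors, which correct for the composition of a library. Different genes are ranked by level only as CPM per kb of merged exon. Ranges over several genes and summed marker levels are in plain CPM, without regard to gene length. In a principal component analysis of all tested genes, the first component held 42.4% of the variance and placed sEV tumour 3 at -35.2, with the other 3 tumours between 5.96 and 16.3. Of 15 neuroblastoma markers, 7 passed the filter, including Hand2 at 164 and 172 CPM in sEV tumours, against 154 and 145 CPM in dinutuximab tumours. Dbh, which encodes the enzyme that makes noradrenaline, had 0 counts in every tumour.

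The promoters of the 3 phases differed in the short elements they held, and these are shown because genes of 1 phase can share them. Sequences came from RefSeq (GRCm38.p6), 250 bases before to 50 bases after the start of each gene, and 35 of the 44 genes matched. Each was searched on both strands for the cell cycle homology region (CHR, TTTGAA), the CCAAT box (CCAAT) and 2 forms of the E2F element (TTTCGCGC and TTTGGCGC). As background, MuvB complexes bind CHR elements, NF-Y binds CCAAT boxes and E2F proteins bind E2F elements. A CHR was found in 12 of 15 mitotic genes (80.0%), 1 of 11 replication genes (9.09%) and 1 of 9 G1 to S genes (11.1%), against 14.5% of 10105 tested genes with a promoter and 20.2% of all 27025 genes of the promoter table. A CCAAT box was found in 14 of 15 mitotic genes, 8 of 11 replication genes and 5 of 9 G1 to S genes, against 43.3% of tested genes and 41.1% of all genes. An E2F element was found in 5 of 11 replication genes (45.5%), 1 of 15 mitotic genes and 1 of 9 G1 to S genes, against 1.76% of tested genes and 0.929% of all genes. A CHR and a CCAAT box were both found in 12 of 15 mitotic genes, against 7.25% of tested genes and 8.97% of all genes. A gene with several listed starts was counted if any of them held the element, so the pair could lie at different starts. In a second list of 45 mitotic genes, 24 of the 37 with a promoter held a CHR, and in a second list of 41 replication genes 6 of 33 did. In a second list of 26 G1 to S control genes 9 of 21 did (42.9%), a larger share than in the first. The other elements were less frequent in the second mitotic and replication lists than in the first. A CCAAT box was found in 67.6% of the second mitotic and 54.5% of the second replication list, and an E2F element in 5.41% and 21.2%. In the G1 to S control list these shares were 52.4% and 14.3%. A match of letters is a description and not a measured binding site.

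Upstream stretches of 4 mitotic and 2 replication genes carry these elements wholly before the start. They were picked after the matches were seen and end at the last base before the start. Capitals mark the CHR, CCAAT and E2F letters given above or their reverse complements. In Mcm5 and Mcm6 a forward and a reverse E2F element overlap and share 4 bases, printed as 1 run of 12 capitals.
Cdk1: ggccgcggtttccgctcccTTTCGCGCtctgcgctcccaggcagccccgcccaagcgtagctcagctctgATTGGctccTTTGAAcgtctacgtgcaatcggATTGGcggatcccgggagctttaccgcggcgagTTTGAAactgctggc
Cdc20: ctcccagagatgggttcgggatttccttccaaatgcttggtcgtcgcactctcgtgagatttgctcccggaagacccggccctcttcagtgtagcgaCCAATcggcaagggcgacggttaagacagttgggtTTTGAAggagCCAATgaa
Top2a: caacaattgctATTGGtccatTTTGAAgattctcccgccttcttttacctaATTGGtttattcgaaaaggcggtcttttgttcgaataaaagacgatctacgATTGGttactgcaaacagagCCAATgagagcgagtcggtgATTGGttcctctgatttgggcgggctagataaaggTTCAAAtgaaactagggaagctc
Mki67: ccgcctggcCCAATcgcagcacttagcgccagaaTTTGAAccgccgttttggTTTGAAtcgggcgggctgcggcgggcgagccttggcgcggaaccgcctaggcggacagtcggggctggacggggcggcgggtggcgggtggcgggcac
Mcm5: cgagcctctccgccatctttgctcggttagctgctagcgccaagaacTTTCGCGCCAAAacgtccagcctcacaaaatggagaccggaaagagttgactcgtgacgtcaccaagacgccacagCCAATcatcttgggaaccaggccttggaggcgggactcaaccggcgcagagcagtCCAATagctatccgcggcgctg
Mcm6: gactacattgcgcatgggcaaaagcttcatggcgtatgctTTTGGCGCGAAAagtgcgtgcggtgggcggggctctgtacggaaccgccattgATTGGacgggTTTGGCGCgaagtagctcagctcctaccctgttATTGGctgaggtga
On GRCm38.p6 these lie at chr10:69352913-69353062 (minus strand) for Cdk1, the kinase of mitotic entry, chr4:118437344-118437493 (minus) for Cdc20, an activator of the anaphase-promoting complex, and chr11:99024190-99024389 (minus) for Top2a, the topoisomerase that untangles chromosomes. Those of Mki67, the Ki-67 proliferation marker, of Mcm5 and of Mcm6 lie at chr7:135716380-135716529 (minus), chr8:75109309-75109508 (plus) and chr1:128359706-128359855 (minus).

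Whether added sEVs altered tumour proliferation under dinutuximab can be asked of these genes in the contrast of sEV over dinutuximab tumours. No cell cycle gene passed the test. With quasi-likelihood F tests in edgeR, adjusted by Benjamini-Hochberg over 13823 genes, 0 of 44 were higher and 0 lower, against 0.0% of all genes tested in each direction. At an unadjusted p under 0.05 the count was 0 of 44, against 2.47% of all genes tested on the higher side and 3.1% on the lower side (5.57% in either direction). The lowest unadjusted p of a member was 0.0562 for Ccne1, and adjusted p ran from 0.885 to 0.999. limma-voom and DESeq2 called 0 of 44 as well, with 0 of 44 under an unadjusted p of 0.05 in each. Other edgeR settings with all tumours called 0 of 44 too, but put Ccne1 under an unadjusted p of 0.05 with upper quartile scaling and with total counts, Ccne2 with no filter, and Ccne1, Ccne2 and Cdt1 with the tumour number as a block. Of the 44, 19 had positive and 25 negative log2 fold changes, from -0.39 for Cdk6 to 0.34 for Ccne2, with a median of -0.01, against 0.0015 over all genes tested. The 95% interval of the log2 fold change lay within a 2-fold change either way for 42 of 44 genes, against 10655 of all 13823 genes tested. The exceptions were Cdk6 and Ccnd2. It lay within a 1.5-fold change for 33 of 44, against 7092 of all 13823. With 2 tumours a group the smallest exact permutation p of a single value is 0.333, so no such test was used. The sEV and dinutuximab tumours did not overlap in 3 of 44 genes on the higher side (18.1% of all genes) and 5 of 44 on the lower side (16.5% of all genes; 34.6% in either direction). These were Ccne1, Ccne2 and Rrm2 on the higher side and Ccnd1, E2f1, E2f2, Mcm6 and Cdt1 on the lower side.

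**Figure D1:**
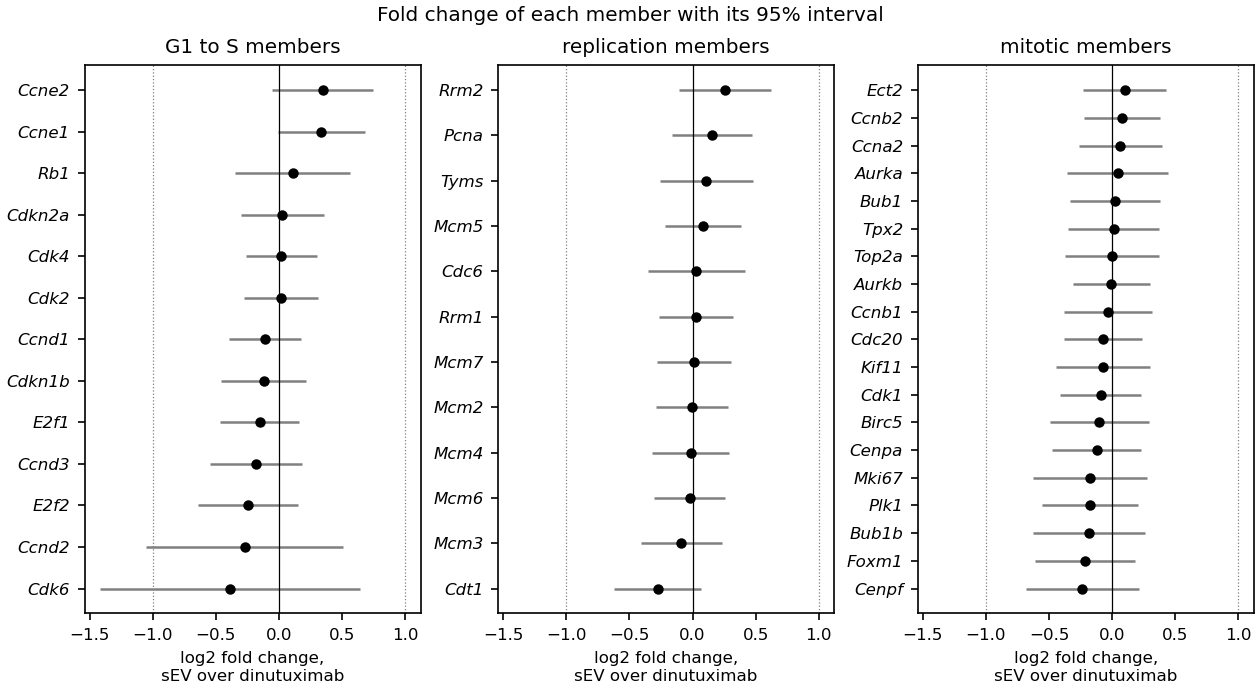
Log2 fold change (x axis, sEV over dinutuximab) of each cell cycle gene with its 95% interval from the edgeR fit, in 3 panels by phase; dotted lines mark a 2-fold change. Every interval includes 0, and those of Cdk6 and Ccnd2 are the widest.

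Of the G1 to S genes, 6 had positive and 7 negative log2 fold changes, with a median of -0.11, an SD among genes of 0.22 and none past the test. The median was -0.015 without sEV replicate 3, -0.053 without sEV replicate 4 and 0.0087 without dinutuximab replicate 3, where its sign turned. Among the D-type cyclins, which sense growth signals, Ccnd1 made up 92.0% and 90.3% of the summed level per kb in sEV tumours, against 90.5% and 90.9% in dinutuximab tumours. Ccnd1 had 557 and 589 CPM in sEV tumours 3 and 4, against 644 and 592 CPM in dinutuximab tumours 3 and 4 (log2 fold change -0.11 ± 0.12 SE, adjusted p = 0.944). The groups did not overlap, and sEV tumour 4 lay close to dinutuximab tumour 4. Ccnd3 had 88.9 and 115 CPM in sEV tumours, against 124 and 108 CPM in dinutuximab tumours, and the groups overlapped. Ccnd2 had 1.57 and 2.39 CPM in sEV tumours, against 2.34 and 2.46 CPM in dinutuximab tumours, at a mean of 0.233 CPM per kb where Ccnd1 had 126.

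Of the kinases that D-type cyclins activate, Cdk4 held nearly all of the summed level per kb. Cdk4 had 646 and 623 CPM in sEV tumours, against 658 and 594 CPM in dinutuximab tumours, and averaged 194 CPM per kb. Cdk6 had 1.34 and 0.624 CPM in sEV tumours, against 1.33 and 1.23 CPM in dinutuximab tumours, and averaged 0.0807 CPM per kb. Cdk2, the partner of cyclin E, was among the steadiest genes, between 54.4 and 56.2 CPM in the 4 tumours.

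Cyclin E genes, whose products start S phase with CDK2, had the lowest unadjusted p of the 44 and did not pass. Ccne1 had 32.1 and 36.6 CPM in sEV tumours, against 26.0 and 28.6 CPM in dinutuximab tumours (log2 fold change 0.33 ± 0.15 SE, 95% interval -0.01 to 0.68, adjusted p = 0.885). Ccne2 had 50.6 and 47.8 CPM in sEV tumours, against 44.9 and 32.6 CPM in dinutuximab tumours (0.34 ± 0.17 SE, 95% interval -0.05 to 0.74, adjusted p = 0.887). In both genes the 2 sEV tumours lay above the 2 dinutuximab tumours. Without dinutuximab replicate 4 the log2 fold change of Ccne2 was 0.13, and without dinutuximab replicate 3 it was 0.60. E2f1, an activating E2F factor, had 67.04 and 79.6 CPM in sEV tumours, against 82.5 and 80.6 CPM in dinutuximab tumours (-0.15 ± 0.14 SE). E2f2, another activating factor, had 24.6 and 19.0 CPM in sEV tumours, against 25.1 and 26.6 CPM in dinutuximab tumours (-0.24 ± 0.17 SE). Neither passed (adjusted p = 0.918 for E2f1 and 0.909 for E2f2), although sEV tumours lay below dinutuximab tumours in each.

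The brakes on the G1 to S step differed widely in level. Cdkn2a, whose locus encodes the CDK4/6 inhibitor p16INK4a and the MDM2 antagonist p19ARF, had the highest level per kb of the 44 genes, at a mean of 386 CPM per kb. It had 432 and 481 CPM in sEV tumours, against 495 and 402 CPM in dinutuximab tumours, and counts per gene do not separate its products. Rb1, the retinoblastoma gene, had 12.0 and 15.8 CPM in sEV tumours, against 12.2 and 13.6 CPM in dinutuximab tumours, at a mean of 2.23 CPM per kb. Cdkn1b, which encodes the CDK inhibitor p27, had 204 and 174 CPM in sEV tumours, against 224 and 187 CPM in dinutuximab tumours. The groups overlapped in all 3 genes, and the log2 fold changes were 0.03 ± 0.15, 0.11 ± 0.20 and -0.12 ± 0.15 (SE) in the order given. Exons of Ccnd1, Cdk4, Ccne2, Ccna2, Rb1 and Mcm7 overlap genes on the opposite strand over 23.4%, 19.7%, 17.4%, 12.5%, up to 8.11% and up to 7.25% of their length. The strand setting of the counting was not given in the sources used here, so a part of these counts may belong to the neighbours.

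**Figure D2:**
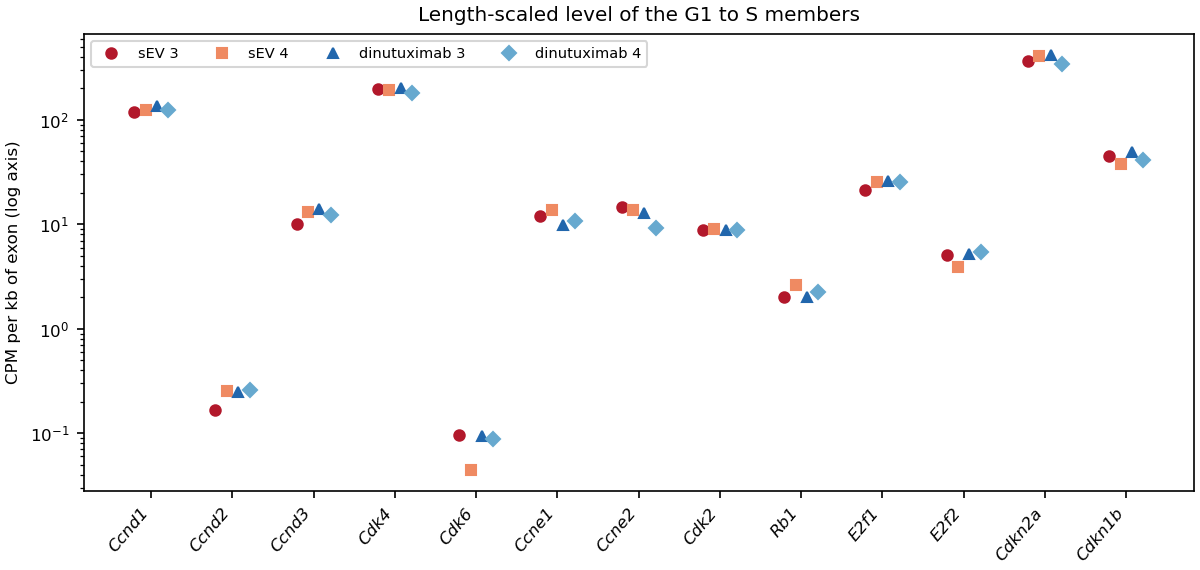
Level of the 13 G1 to S genes in CPM per kb of merged exon (y axis, log scale), 1 point per tumour. Cdkn2a, Cdk4 and Ccnd1 lie above 100 CPM per kb in every tumour, and Ccnd2 and Cdk6 lie below 1.

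Replication genes varied least between tumours. Of these, 7 had positive and 5 negative log2 fold changes, with a median of 0.02, an SD among genes of 0.13 and none past the test. The median was negative without sEV replicate 4 (-0.043) and without dinutuximab replicate 4 (-0.026). Their highest tumour was a median of 1.19 times their lowest, against 1.31 for G1 to S genes, 1.32 for mitotic genes and 1.25 for all genes tested at 10 CPM or more. The 6 subunits of the MCM helicase, which opens DNA at replication forks, ranged from 123 CPM for Mcm4 in sEV tumour 3 to 270 CPM for Mcm7 in sEV tumour 4. Mcm6 had 222 and 225 CPM in sEV tumours, against 227 and 227 CPM in dinutuximab tumours. Mcm2 had 222 and 232 CPM in sEV tumours, against 225 and 230 CPM in dinutuximab tumours (log2 fold change 95% interval -0.29 to 0.28). Per kb the most abundant subunit stood 1.71 and 1.83 times above the least abundant in sEV tumours, against 1.82 and 1.77 times in dinutuximab tumours. Mcm7 had the highest level per kb (57.5 CPM per kb), with 241 and 270 CPM in sEV tumours, against 260 and 246 CPM in dinutuximab tumours. Mcm3 followed at 55.0 CPM per kb, with 181 and 220 CPM in sEV tumours, against 206 and 220 CPM in dinutuximab tumours. The groups overlapped in both, and the log2 fold changes of the 6 subunits lay between -0.09 for Mcm3 and 0.08 for Mcm5.

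Genes around the fork varied more. Pcna, the sliding clamp, had the highest level per kb of the replication genes (103 CPM per kb) and 247 and 272 CPM in sEV tumours, against 251 and 216 CPM in dinutuximab tumours. Rrm2, the regulated subunit of ribonucleotide reductase, had 68.1 and 65.3 CPM in sEV tumours, against 63.4 and 48.3 CPM in dinutuximab tumours (log2 fold change 0.26 ± 0.16 SE, adjusted p = 0.908). Tyms, which makes thymidylate, had 69.8 and 72.7 CPM in sEV tumours, against 75.6 and 56.6 CPM in dinutuximab tumours (0.11 ± 0.16 SE). In each of these 3 genes dinutuximab tumour 4 was the lowest. Rrm1, the larger reductase subunit, stayed between 241 and 267 CPM. The licensing factors CDT1 and CDC6 load MCM on DNA. Cdt1 had 84.2 and 105 CPM in sEV tumours, against 108 and 121 CPM in dinutuximab tumours (-0.28 ± 0.15 SE, 95% interval -0.62 to 0.07, adjusted p = 0.889), with the groups apart. Cdc6 had 27.3 and 32.9 CPM in sEV tumours, against 32.3 and 26.7 CPM in dinutuximab tumours, with the groups overlapping.

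**Figure D3:**
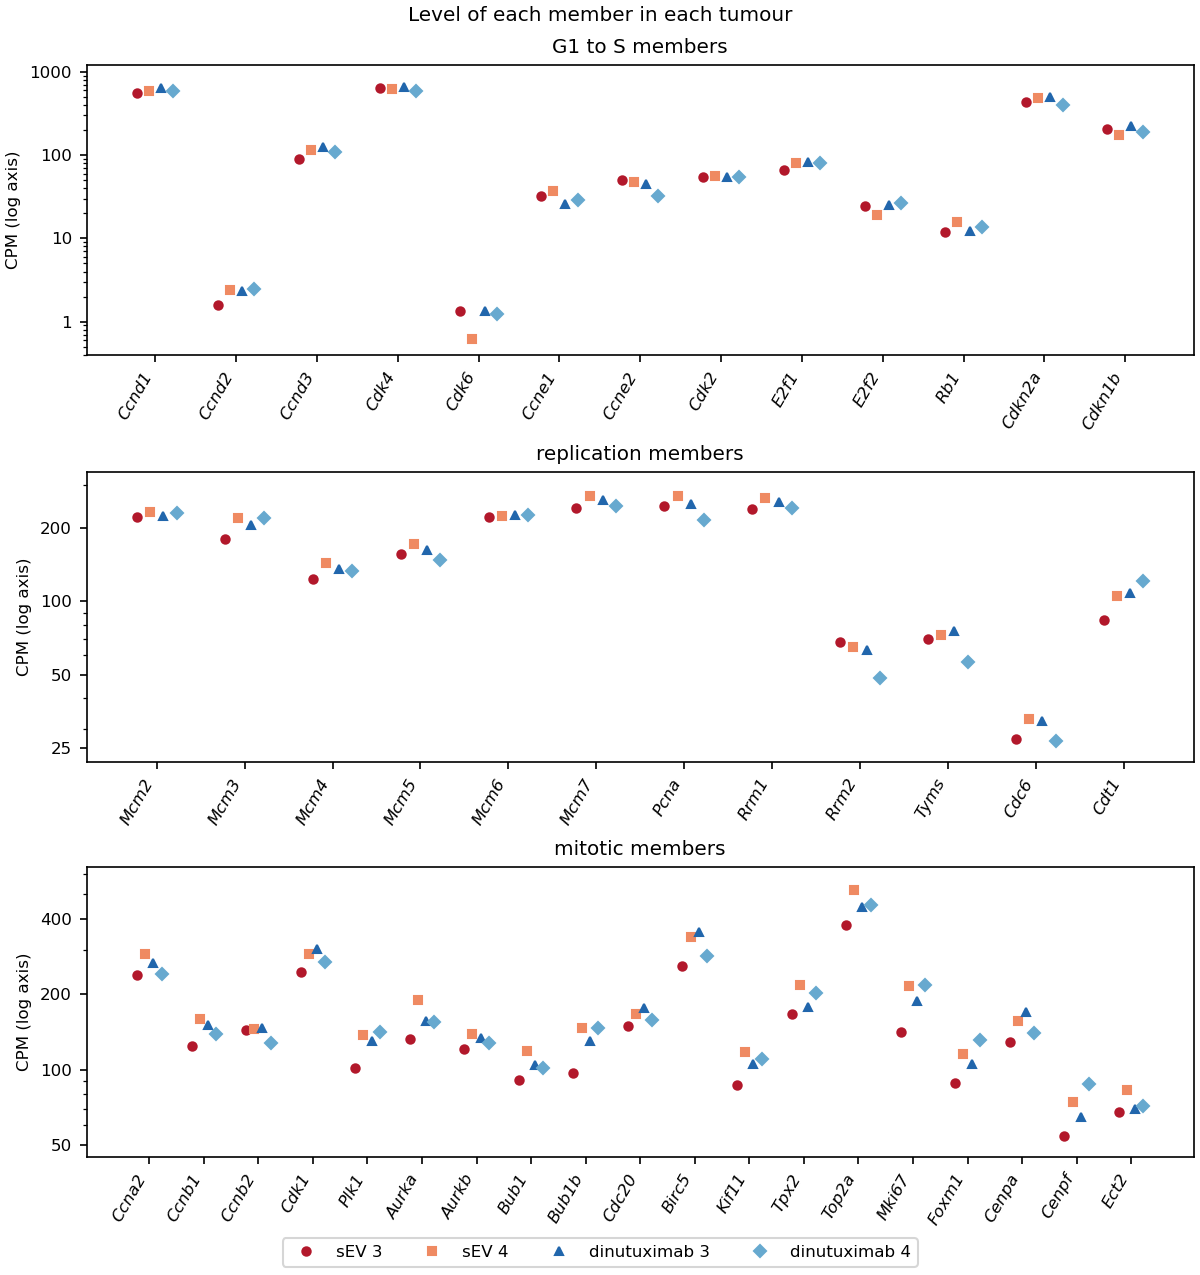
Level in CPM (y axis, log scale) of each of the 44 genes in each tumour, in 3 panels by phase. Among mitotic genes the sEV 3 point is the lowest of the 4 for every gene but Ccnb2.

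Mitotic genes differed more between the 2 sEV tumours than between the groups. Of these, 6 had positive and 13 negative log2 fold changes, with a median of -0.07, an SD among genes of 0.10 and none past the test, and the groups overlapped in all 19. In 18 of 19 mitotic genes the lowest level was in sEV tumour 3, against 28.6% of all genes tested, and in 9 of 19 the highest was in sEV tumour 4, against 19.2% of all genes tested. The highest level of the other 10 was in dinutuximab tumour 3 for 5 genes and in dinutuximab tumour 4 for 5, against 24.9% and 27.0% of all genes tested, and sEV tumour 3 held the highest of 0 of 19, against 28.9%. Ccnb2 was the exception, with its lowest level in dinutuximab tumour 4. The share with the lowest level in sEV tumour 3 was 7 of 12 for replication genes and 6 of 13 for G1 to S genes. Mean log2 deviations of the 19 genes from their own 4-tumour means were -0.22 and 0.14 in sEV tumours 3 and 4, against 0.03 and 0.04 in dinutuximab tumours 3 and 4. The difference of 0.36 between the 2 sEV tumours was larger than the difference of -0.07 between the group means. Replication genes had the same order at smaller values (0.15 against 0.02), and G1 to S genes did not (0.03 against -0.05). In the second lists the values were 0.26 against -0.05 for mitotic, 0.10 against -0.002 for replication and 0.08 against -0.02 for G1 to S control genes. A difference between 2 single tumours also varies more than a difference between group means. Without sEV replicate 3 the median log2 fold change of the mitotic genes was 0.083, and without sEV replicate 4 it was -0.24. Without dinutuximab replicate 3 it was 0.0094, and 0 of 44 genes were called in these fits. Without sEV replicate 4, 6 members had negative log2 fold changes at an unadjusted p under 0.05 (Bub1b, Cdt1, Cenpf, Foxm1, Mki67 and Plk1), against 771 of all 14179 genes tested in that fit.

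Markers of proliferation showed this pattern. Mki67 had 142 and 216 CPM in sEV tumours 3 and 4, against 188 and 217 CPM in dinutuximab tumours 3 and 4 (log2 fold change -0.17 ± 0.20 SE, 95% interval -0.63 to 0.28, adjusted p = 0.944). As a further marker, Top2a had 378 and 518 CPM in sEV tumours, against 444 and 453 CPM in dinutuximab tumours, so that the sEV tumours were the lowest and the highest of the 4. It averaged 448 ± 99.1 CPM in sEV tumours and 449 ± 6.52 CPM in dinutuximab tumours (SD, n = 2 each). Foxm1, a transcription factor of mitotic genes, had 88.2 and 115 CPM in sEV tumours, against 105 and 131 CPM in dinutuximab tumours (-0.22 ± 0.17 SE, adjusted p = 0.909).

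Genes of mitotic entry followed. Cdk1 had 246 and 289 CPM in sEV tumours, against 302 and 267 CPM in dinutuximab tumours. Its partner Ccnb1, a B-type cyclin, had 125 and 159 CPM in sEV tumours, against 151 and 139 CPM in dinutuximab tumours. The other B-type cyclin, Ccnb2, had 143 and 146 CPM in sEV tumours, against 146 and 127 CPM in dinutuximab tumours, and the highest mean level per kb of the mitotic genes, 91.8 CPM per kb. Per kb, the ratio of Ccnb1 to Ccnb2 was 0.316 and 0.396 in sEV tumours, against 0.376 and 0.395 in dinutuximab tumours, lowest in sEV tumour 3. Plk1, a kinase of mitotic entry and spindle assembly, had 102 and 138 CPM in sEV tumours, against 130 and 142 CPM in dinutuximab tumours (-0.18 ± 0.17 SE). Aurka, a centrosomal kinase, ranged from 132 to 189 CPM and Ccna2, the S and G2 cyclin, from 239 to 290 CPM, with both extremes in the sEV tumours.

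Checkpoint, kinetochore and cytokinesis genes included the widest spread between tumours among the mitotic genes. Bub1b, which encodes the checkpoint kinase BUBR1, had 97.2 and 147 CPM in sEV tumours, against 130 and 147 CPM in dinutuximab tumours (log2 fold change -0.18 ± 0.19 SE, adjusted p = 0.940). Cenpf, a kinetochore protein, had the largest ratio of highest to lowest tumour among the mitotic genes, 1.61, with 54.5 and 74.6 CPM in sEV tumours, against 64.6 and 87.5 CPM in dinutuximab tumours (-0.24 ± 0.20 SE, adjusted p = 0.910). Cdc20 had 150 and 167 CPM in sEV tumours, against 176 and 157 CPM in dinutuximab tumours. Birc5, which encodes survivin of the chromosomal passenger complex, had 258 and 338 CPM in sEV tumours, against 355 and 284 CPM in dinutuximab tumours. Ect2, an activator of RhoA in cytokinesis, had the largest positive value of the mitotic genes (0.10 ± 0.14 SE), with 67.8 and 83.4 CPM in sEV tumours, against 69.8 and 71.5 CPM in dinutuximab tumours. Among the other 5 genes, Aurkb and Cenpa act at the centromere, Bub1 in the checkpoint, and Kif11 and Tpx2 in the spindle. Their log2 fold changes ran from -0.12 for Cenpa to 0.02 for Bub1.

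**Figure D4:**
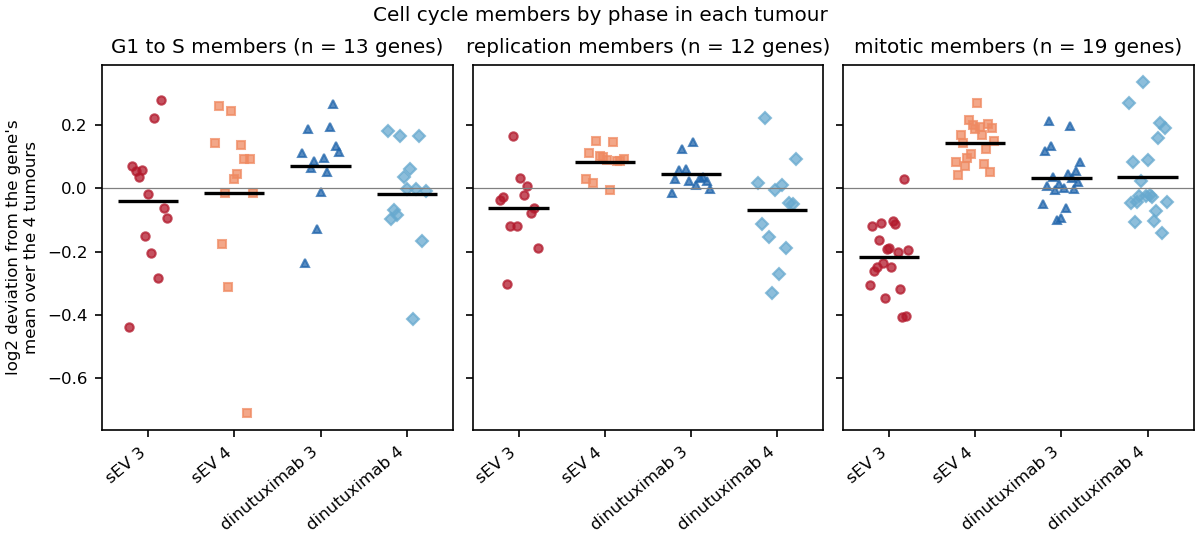
Log2 deviation of each gene from its mean over the 4 tumours (y axis), by tumour and phase, 1 point per gene with the mean over genes as a black line. For mitotic genes the line is at -0.22 in sEV 3 and at 0.14 in sEV 4, and for replication genes the lines lie between -0.07 and 0.08.

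The balance of the phases was set per tumour as the mean mitotic minus the mean replication deviation. It was -0.16 and 0.06 in sEV tumours 3 and 4, against -0.01 and 0.11 in dinutuximab tumours 3 and 4. It averaged -0.05 ± 0.15 in sEV tumours and 0.05 ± 0.08 in dinutuximab tumours (SD, n = 2 each), a difference of -0.09 that was smaller than the SD of the sEV group. Without sEV replicate 3 the difference was 0.013, and without sEV replicate 4 it was -0.20. Replication genes alone had mean deviations of -0.06 and 0.08 in sEV tumours, against 0.04 and -0.07 in dinutuximab tumours. G1 to S genes had -0.04 and -0.01 in sEV tumours, against 0.07 and -0.02 in dinutuximab tumours. In sEV tumour 3 the mean deviation was lower in mitotic than in replication or G1 to S genes.

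Long and short genes also deviated between tumours. Over genes at 10 CPM or more in 8 bins of exon length, the median deviation in the bin of longest genes was -0.06 and 0.01 in sEV tumours 3 and 4, against -0.07 and 0.11 in dinutuximab tumours 3 and 4. With this trend removed, an alternative chosen after the data were seen, the mean mitotic deviation was -0.22 in sEV tumour 3 and 0.15 in sEV tumour 4, and 18 of 19 mitotic genes were still lowest in sEV tumour 3. Host cell markers also differed in level, none past the test. Summed levels of 12 macrophage markers were 3504 and 3479 CPM in sEV tumours, against 2728 and 3115 CPM in dinutuximab tumours, with 10 of 12 positive. Summed levels of 12 lymphocyte and NK markers were 6.65 and 13.97 CPM in sEV tumours, against 6.98 and 8.89 CPM in dinutuximab tumours, with 6 of 7 tested positive. Summed levels of 10 endothelial markers were 128 and 119 CPM in sEV tumours, against 151 and 175 CPM in dinutuximab tumours, with 10 of 10 negative. Summed levels of 10 fibroblast markers were 905 and 753 CPM in sEV tumours, against 653 and 649 CPM in dinutuximab tumours, with 7 of 10 negative although the sum was higher. Immediate early and heat shock genes summed to 651 and 637 CPM in sEV tumours, against 825 and 743 CPM in dinutuximab tumours, with 14 of 15 negative. Genes listed for reads of ribosomal RNA were Gm42418, Gm26917, Gm26870, which was at 0 in every tumour, and Lars2, itself a protein-coding gene. They summed to 47453 and 39556 CPM in sEV tumours, against 58369 and 59475 CPM in dinutuximab tumours. Red blood cell markers summed to 71.1 and 43.6 CPM in sEV tumours, against 35.2 and 21.5 CPM in dinutuximab tumours, with 6 of 6 positive. No cell type marker in these lists was at 0 in every tumour, and the part of these differences in the mitotic levels was not tested.

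**Figure D5:**
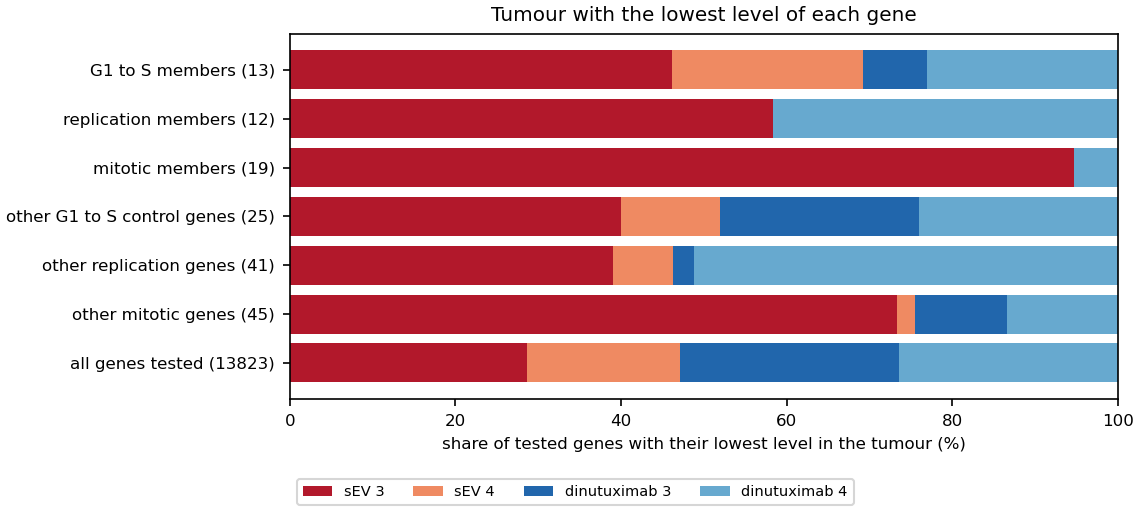
Share of genes (x axis, percent) whose lowest level of the 4 tumours fell in each tumour, for the 3 phases, the 3 further cell cycle lists and all genes tested, with the number of genes in brackets. sEV 3 holds the lowest level in 94.7% of mitotic genes and 73.3% of the other mitotic genes, against 28.6% of all genes tested.

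Further genes of the pathway were counted from 3 more lists. Of 26 other G1 to S control genes 25 were tested, the untested one being Cdkn1c, and all 41 other replication genes and 45 other mitotic genes were tested. None passed in either direction by the edgeR test, and 1 gene of each list had an unadjusted p under 0.05 (Rbl1, Cdc45 and Nek2), against 5.57% of all genes tested. Medians of the log2 fold change were 0.02 for the G1 to S control list, -0.0005 for the replication list and -0.02 for the mitotic list, against 0.0015 over all genes tested. The lowest level fell in sEV tumour 3 for 33 of 45 other mitotic genes, 16 of 41 other replication genes and 10 of 25 other G1 to S control genes, against 28.6% of all genes tested. Dinutuximab tumour 4 held the lowest level of 21 of 41 other replication genes, against 26.5% of all genes tested, and of 5 of the 12 replication genes of the main list.

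Among the other G1 to S control genes, Rbl1, which encodes the RB relative p107, had 59.7 and 60.8 CPM in sEV tumours, against 44.9 and 49.4 CPM in dinutuximab tumours (log2 fold change 0.35 ± 0.13 SE, adjusted p = 0.831). Cks1b, a CDK-binding subunit, had a log2 fold change of -0.24 ± 0.15 and E2f6, a repressive E2F factor, 0.23 ± 0.15 (SE). Among replication genes, Cdc45, a partner of the MCM helicase, had 72.1 and 83.6 CPM in sEV tumours, against 106 and 96.5 CPM in dinutuximab tumours (-0.38 ± 0.14 SE, adjusted p = 0.804). Rfc1, of the clamp loader, had a log2 fold change of -0.28 ± 0.14 and Orc4, of the origin recognition complex, 0.29 ± 0.16 (SE). Among mitotic genes, Nek2, a centrosomal kinase, had 51.0 and 61.9 CPM in sEV tumours, against 67.6 and 76.4 CPM in dinutuximab tumours (-0.35 ± 0.15 SE, adjusted p = 0.881). Cenpe, a kinetochore motor, had a log2 fold change of -0.37 ± 0.17 and Kif18a, a motor of chromosome alignment, 0.31 ± 0.17 (SE). In Rbl1, Cdc45 and Nek2 the groups did not overlap, and none of the 9 genes passed.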

How the data were processed

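Messenger RNA of 4 tumours was sequenced from stranded libraries, per the labels' protocols. Raw counts for each Ensembl gene were deposited by the authors in a series table and in 1 table per sample, and all 173728 values were equal in both. STAR, SAMtools, HTSeq and mm10 are named in the submitters' processing notes, and for their versions, the annotation and the strand setting the sources used here say nothing. Near-identical copies and overlapping genes are therefore uncertain. Symbols came from GENCODE M21 (GRCm38), which named 42462 of 43432 identifiers.

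The tests ran in edgeR 4.0.16 under R 4.3.3: filterByExpr (13823 genes kept), TMM (0.976 to 1.02), the quasi-likelihood F test with the group as the only term, and Benjamini-Hochberg adjustment at 0.05. Deviations used log2(CPM + 0.1). Alternatives were DESeq2 1.42.0, limma-voom (limma 3.58.1), 3 scalings, 2 filters, robust dispersions, a threshold of 0.1, the tumour number as a block, each library left out, and a length correction chosen after seeing the data. The members and lists were chosen with earlier results of these data known.

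Named were, per phase, the 4 genes of lowest p, the 3 of highest level per kb and the largest value in each direction, a set of well-known members whatever their result, and the 3 of lowest p in each further list. Other members were named after their values were seen, and no list was tested as a set. The series design calls the tumours biological replicates, and libraries of the same group differed by a chi-square per degree of freedom of 26.4 (sEV) and 23.9 (dinutuximab). Between groups it ran from 22.6 (sEV tumour 4 and dinutuximab tumour 4) to 35.8 (sEV tumour 3 and dinutuximab tumour 4). Tumours of a group were thus not always more alike than tumours of different groups. Some markers of the tissue check are not reported here.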

Additional observations from a re-analysis of the deposited data

How the results depend on the processing

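The count of cell cycle genes called was 0 higher and 0 lower under every setting run. Over all genes, the count higher and lower was 107 and 155 with no filter on low counts, 17 and 38 with DESeq2, and 21 and 46 with the tumour number as a replicate block. The labels do not say that the numbers pair tumours, and there are only 2 pairs. The difference of tumour 3 from tumour 4 in the sEV group correlated over genes at 0.0677 with that in the dinutuximab group. Leaving out 1 library gave between 0 and 160 genes higher and between 0 and 156 lower (48 and 84 without sEV replicate 3, 160 and 156 without sEV replicate 4, and 0 without either dinutuximab replicate). Those fits assume that the lone tumour of a group varies like the other group. Without 1 library the median log2 fold change ranged from -0.17 to 0.0087 for G1 to S genes (-0.015 without sEV replicate 3, -0.053 without sEV replicate 4, 0.0087 without dinutuximab replicate 3 and -0.17 without dinutuximab replicate 4), from -0.043 to 0.087 for replication genes and from -0.24 to 0.083 for mitotic genes, and the mitotic minus replication difference from -0.20 to 0.013. The causes were not tested. Over the other scalings, filters and tools the medians ran from -0.12 to -0.072 for G1 to S genes, 0.0096 to 0.057 for replication genes and -0.083 to -0.035 for mitotic genes. Of 31 named members, 10 changed sign without sEV replicate 3, 5 without sEV replicate 4, 5 without dinutuximab replicate 3 and 7 without dinutuximab replicate 4. Counts of 18 to 69 limit Cdk6 and Ccnd2.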

Other observations

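Genes of the further G1 to S list that were not named by rule gave 1 more pattern, chosen after the values were seen. Cdkn1a, which encodes the CDK inhibitor p21, had 21.2 and 14.6 CPM in sEV tumours 3 and 4, against 22.4 and 14.3 CPM in dinutuximab tumours 3 and 4, so that the tumours numbered 3 were higher in both groups. Mybl2, which encodes a MuvB partner, had 56.8 and 75.1 CPM in sEV tumours 3 and 4, against 56.7 and 73.3 CPM in dinutuximab tumours 3 and 4, with the tumours numbered 3 lower in both groups. Other genes of this list also went the same way in both groups, such as E2f3 (23.3 and 31.5 CPM, against 29.3 and 35.8 CPM). Others went opposite ways, such as Skp2 (53.7 and 66.4 CPM, against 59.0 and 53.7 CPM). Over all genes tested, the difference of tumour 3 from tumour 4 in the sEV group correlated at only 0.0677 with that in the dinutuximab group. The labels do not say what the numbers mean, and a difference by tumour number was not tested. The edgeR test compared sEV with dinutuximab tumours (adjusted p = 0.993 for both genes), so it cannot speak to this pattern.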
